A study of Homo sapiens with 21 samples.

Results

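The EGR genes and their NAB corepressors were followed through RNA from SH-SY5Y cells exposed to per- and polyfluoroalkyl substances (PFAS). The 6 members, EGR1, EGR2, EGR3, EGR4, NAB1 and NAB2, were taken by symbol from the 62656 genes of the deposited raw count table. They were chosen by their levels in these libraries and their changes against control, EGR1 above all. Those levels and changes are therefore given as a description, with no p-value, and where calls against control are counted nothing is read from them.

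EGR proteins are zinc finger transcription factors that bind GC-rich promoter sites. EGR1, EGR2, EGR3 and EGR4 are immediate early genes, switched on within minutes by growth factors or neuronal activity through ERK signalling, serum response factor (SRF) and the ETS partners of SRF. NAB1 and NAB2 bind EGR1, EGR2 and EGR3 and repress their targets, in part by recruiting the NuRD chromatin complex, and NAB2 is itself an EGR target.

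SH-SY5Y, a line of human neuroblastoma cells, takes on neuron-like features when differentiated. Here it carried the wild-type genotype label and had been differentiated for 11 days before a 24 h exposure to 30 µM of a single PFAS, with 1% methanol in the final solutions. The groups were PFOA and PFDA, a shorter and a longer perfluoroalkyl carboxylic acid, PFOS and PFDS, a shorter and a longer sulfonic acid, 8:2 FTS, a fluorotelomer sulfonic acid, 8:2 FTOH, a fluorotelomer alcohol, and control, with 3 libraries of ribosome-depleted total RNA each. The methanol content of the controls is not given in the sources used here, so an effect of a compound and of its solvent cannot be told apart. All cells come from a single line, and nothing in the labels says that the 3 libraries of a group came from separate cultures. The p-values below then cover the spread among these samples alone, and that spread may be technical.

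Total counts per library ran from 7680024 to 30429746 over the 21 libraries. The compound libraries had a median of 13570921, and most were shallower than the control libraries, at 22179910 to 24905803; the part of this gap in the results was not tested. 8:2 FTOH replicate 3 and control replicate 3 stood apart, with 6.11% and 6.33% of counts from the mitochondrial chromosome, against 3.37% to 5.4% elsewhere, and the authors' normalized table leaves both out. Of 10 adrenergic neuroblastoma markers 9 averaged at least 1 CPM (counts relative to the TMM-scaled library size), led by STMN2 and DBH, while TH averaged 0.899 CPM. Their summed level was 4020 to 5060 CPM in compound libraries and 4290 to 4770 in control. The summed level of 10 mesenchymal markers was 186 to 226 CPM with the compounds and 199 to 220 in control, and that of 8 Schwann cell markers 26.5 to 36 CPM with the compounds and 28.9 to 33.1 in control, with FOXD3 at 0 throughout. Since RNA was measured in bulk, fewer cells that express a gene and less RNA per cell cannot be told apart.

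EGR1, the member most used as a marker of recent stimulation, lies on chromosome 5 at 138465479 to 138469303 on the plus strand (hg38, ENSG00000120738), and no other annotated gene shares its exons. The 250 bases before its start are shown because they hold matches to an element that SRF is known to bind. Sequence further upstream was not searched. In the RefSeq sequence (GRCh38.p14, chr5:138465229-138465478, plus strand) capitals mark the CArG boxes, the sites that SRF binds.
EGR1 upstream: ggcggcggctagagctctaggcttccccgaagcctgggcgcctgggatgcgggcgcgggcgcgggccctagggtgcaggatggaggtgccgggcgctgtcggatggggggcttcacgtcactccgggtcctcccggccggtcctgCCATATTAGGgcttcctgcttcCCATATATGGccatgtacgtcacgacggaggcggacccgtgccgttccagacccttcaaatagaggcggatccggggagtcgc
The boxes start 105 and 83 bases upstream of the transcription start. A CArG box was present in 1.16% of 35116 RefSeq windows of 250 bases, and 2 or more were present in 11 of them, or 0.0313%. The core TGACG of cyclic AMP response elements, searched on both strands, matched at 135 and 66 bases upstream of EGR1 and was present in 21.2% of windows. These are matches of letters and show no binding.

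EGR1 was lower than control with every compound. PFOA libraries had 13.4, 16.2 and 16.5 CPM, PFOS libraries 10.9, 16.6 and 10.2, and PFDA libraries 17.3, 15.6 and 13.9, against 45.7, 33 and 28.7 CPM in control libraries. PFDS libraries had 16.3, 17.1 and 19.3 CPM and 8:2 FTS libraries 14.3, 14.2 and 15.3. The 8:2 FTOH libraries, at 21.7, 21.5 and 26.8 CPM, lay above the other 15 compound libraries and below the 3 control libraries. No compound group overlapped control. Among all genes tested, the share with 3 libraries below the 3 of control was 8.46% with PFOA, 7.41% with PFOS, 7.85% with PFDA, 4.53% with PFDS, 7.17% with 8:2 FTS and 6.98% with 8:2 FTOH. The counts behind these levels were 149 to 545 per compound library and 604 to 1029 per control library.

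**Figure D1:**
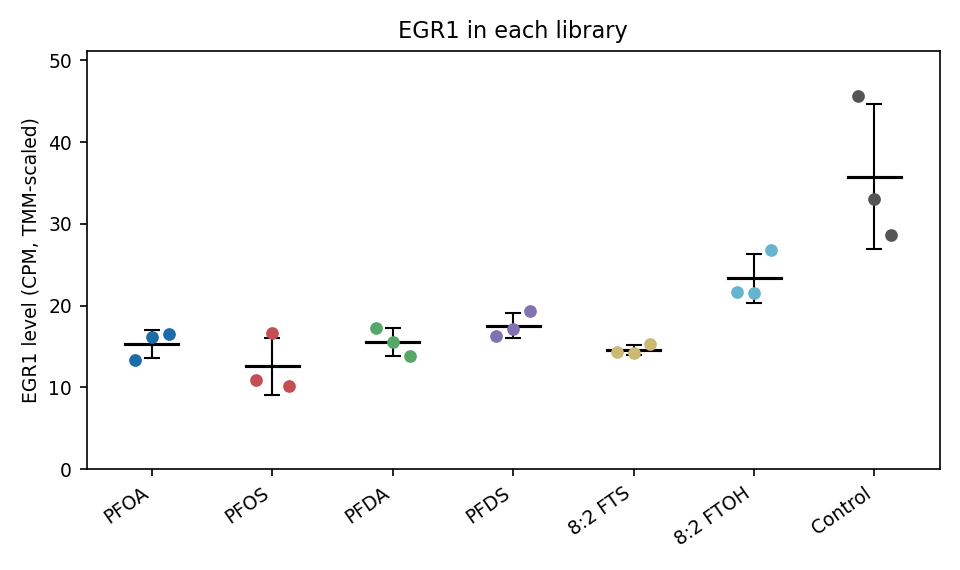
EGR1 level in CPM (TMM-scaled) in each of the 21 libraries, by group; points are libraries, lines the mean and bars 1 SD. The 15 libraries of PFOA, PFOS, PFDA, PFDS and 8:2 FTS lie at 10.2 to 19.3 CPM, the 8:2 FTOH libraries at 21.5 to 26.8 and the control libraries at 28.7 to 45.7.

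Ordered from low to high, mean EGR1 levels were 12.6 CPM ± 3.47 with PFOS, 14.6 ± 0.59 with 8:2 FTS, 15.4 ± 1.73 with PFOA, 15.6 ± 1.72 with PFDA, 17.5 ± 1.53 with PFDS, 23.3 ± 2.97 with 8:2 FTOH and 35.8 ± 8.82 in control (SD, n = 3 each). Neighbours in this order overlapped as far as PFDS. The gaps from PFDS to 8:2 FTOH and from 8:2 FTOH to control had no overlap, although the highest 8:2 FTOH library and the lowest control library are the pair with a high mitochondrial share. With 8:2 FTOH 6.98% of all genes tested lay wholly below control. For PFDS and 8:2 FTOH no such share was taken and no test was run, so nothing is read from that gap. In CPM the control libraries differed among themselves by more than those of any compound.

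The fitted log2 fold change over control (edgeR quasi-likelihood, SE 0.15 for each) was -1.53 for PFOS, -1.30 for 8:2 FTS, -1.21 for PFOA, -1.20 for PFDA, -1.02 for PFDS and -0.63 for 8:2 FTOH. EGR1 thus stood at 34.7% of control with PFOS, 40.7% with 8:2 FTS, 43.1% with PFOA, 43.5% with PFDA, 49.3% with PFDS and 64.5% with 8:2 FTOH. The 6 values share the same control libraries. EGR1 was the only member called at an adjusted p of 0.05, with all compounds but 8:2 FTOH. Over all genes tested, 0.0322% were called with PFOA, 0.0241% with PFOS, 0.00804% with PFDA, 0.0241% with PFDS, 0.0844% with 8:2 FTS and 0.0322% with 8:2 FTOH. Ranked by p among the 24879 genes, EGR1 came first for those 5 compounds and 28th for 8:2 FTOH, but it was chosen for this pattern, so neither the calls nor the ranks are evidence for it.

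Without control replicate 1, the highest control, the 8:2 FTOH log2 fold change was -0.41. It was -0.77 with control replicate 3 left out. Leaving out that library and 8:2 FTOH replicate 3 gave -0.86. The PFOS value was -1.31 without control replicate 1 and -1.76 without PFOS replicate 2, the highest PFOS library. Over 14 alternatives the log2 fold change stayed between -1.76 and -1.31 for PFOS, -1.43 and -1.08 for 8:2 FTS, -1.35 and -1 for PFOA, -1.33 and -0.98 for PFDA, -1.15 and -0.80 for PFDS, and -0.86 and -0.41 for 8:2 FTOH.

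EGR2, known for its part in Schwann cell myelination and in hindbrain patterning, was low and varied within groups. It lies on chromosome 10 at 62811996 to 62819167 on the minus strand (ENSG00000122877). Counts were 5 to 36 per library. Levels were 0.771, 1.34 and 0.361 CPM in PFOA libraries and 1.06, 0.846 and 1.62 in 8:2 FTS libraries, against 0.799, 0.922 and 1.33 in control libraries. These libraries hold the lowest and the highest EGR2 values of all 21, and every compound group overlapped control. The log2 fold change over control was -0.36 for PFOA (SE 0.44) and 0.19 for 8:2 FTS (SE 0.42), with the other 4 compounds between them. A CArG box lies 71 bases upstream of the third RefSeq start of EGR2, inside the annotated gene. It is shown with its flanks for comparison with EGR1 (GRCh38.p14, chr10:62816418-62816447, minus strand), the box in capitals.
EGR2 box: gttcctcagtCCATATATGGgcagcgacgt
Its letters are those of the second box of EGR1.

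EGR3, an activity-induced factor needed for muscle spindle development in mice, was also low. It lies on chromosome 8 at 22687659 to 22693480 on the minus strand (ENSG00000179388). PFOS libraries had 0.710, 0.825 and 0.687 CPM, PFDA libraries 0.982, 0.976 and 1.00, PFDS libraries 0.591, 0.665 and 0.972, 8:2 FTS libraries 0.865, 0.846 and 0.342, and 8:2 FTOH libraries 0.823, 0.829 and 0.776. These 5 groups lay below all control libraries, which were close together at 1.33, 1.26 and 1.38 CPM. With these compounds 4.53% to 7.85% of all genes tested lay wholly below control, and the 5 groups share the same control libraries. PFOA libraries, at 1.11, 1.49 and 1.04 CPM, overlapped control.

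The log2 fold change of EGR3 over control was -0.90 for 8:2 FTS (SE 0.41), -0.84 for PFOS (SE 0.40), -0.78 for PFDS (SE 0.40), -0.70 for 8:2 FTOH (SE 0.41), -0.42 for PFDA (SE 0.38) and -0.13 for PFOA (SE 0.39). EGR3 was not called for any compound. The counts were few: 33 to 64 over each compound group and 89 over the control group, 4 to 30 per library. Pooled CPM divide the summed counts of a group by its summed TMM-scaled library sizes. Pooled in this way, EGR3 had 0.725 CPM with 8:2 FTS (exact Poisson 95% interval 0.499 to 1.02) and 1.32 in control (1.06 to 1.62). That interval covers counting error only. Without 8:2 FTS replicate 3, which had 4 counts, the 8:2 FTS value was -0.62. The gene ENSG00000253125 shares 164 exon bases with EGR3 on the opposite strand and had 2.38 counts per library on average.

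EGR4, known for a role in male germ cells of mice, was near the limit of detection and was left out of the fit by the filter on low counts. It lies on chromosome 2 at 73290929 to 73293701 on the minus strand (ENSG00000135625). It had no count in 12 of 21 libraries and at most 8 in the rest. The 3 libraries of a group together held 8 counts with PFOA, 4 with PFOS, 1 with PFDA, 12 with PFDS, 0 with 8:2 FTS, 2 with 8:2 FTOH and 6 in control. A count of 0 over the 8:2 FTS group allows up to 0.0659 CPM, pooled as for EGR3, by the limit of 3 counts. By exact Poisson 95% intervals, which cover counting error only, 8:2 FTS reached at most 0.0811 CPM and control 0.0327 to 0.194, so a difference between them was not detectable at this depth. The PFDS interval, 0.121 to 0.41 CPM, lay above those of 8:2 FTS and PFDA (at most 0.0861 CPM) and overlapped that of control. The PFDS libraries held 0, 4 and 8 counts, so that group overlapped the libraries of 8:2 FTS and PFDA.

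**Figure D2:**
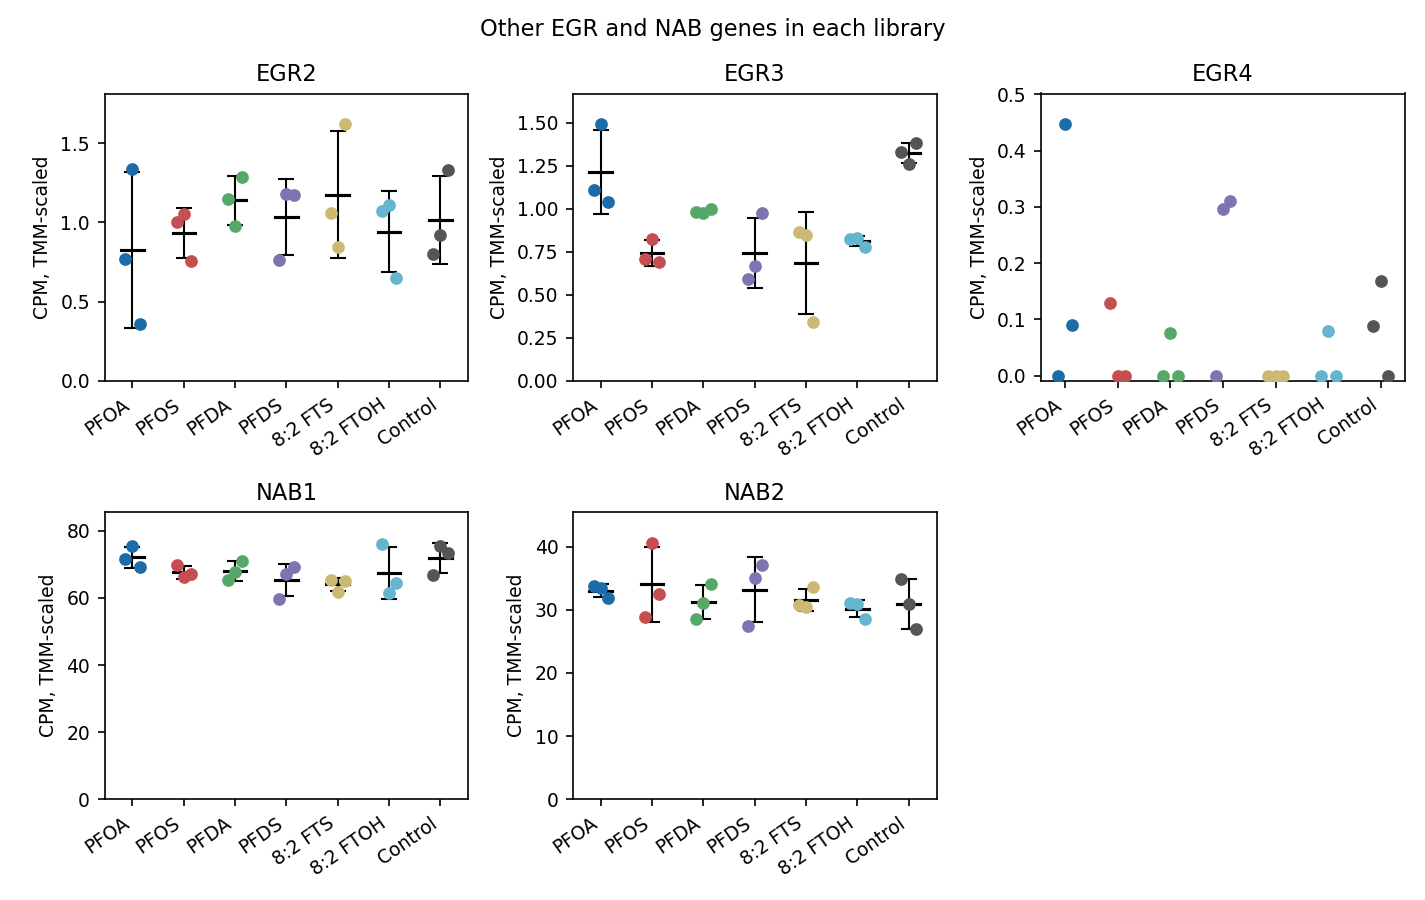
Levels in CPM (TMM-scaled) of EGR2, EGR3, EGR4, NAB1 and NAB2 in each library, by group, each panel on its own axis from 0; points are libraries, lines the mean and bars 1 SD (for EGR4 points only). EGR3 lies below control in 5 compound groups and overlaps it for PFOA, while EGR2 and NAB2 overlap control in every group. In those 5 groups 4.53% to 7.85% of all genes tested lie below control.

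The corepressor genes NAB1 and NAB2 were well expressed and close to control with all compounds. NAB1 lies on chromosome 2 at 190646746 to 190692766 on the plus strand (ENSG00000138386) and NAB2 on chromosome 12 at 57089043 to 57095476 on the plus strand (ENSG00000166886). Their upstream windows are shown in part because NAB2 is a reported EGR target. Capitals mark the EGR site GCGGGGGCG or its variant GCGTGGGCG, searched on both strands, or the reverse complement where the match is on the minus strand.
NAB2, chr12:57089042-57089070: tgtgcgtcctGCGGGGGCGgaggcgcgga
NAB1, chr2:190648849-190648877: cggccgccccCGCCCCCGCccggcggcgg
NAB1, chr2:190648898-190648926: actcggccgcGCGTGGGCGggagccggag
All are read on the plus strand of GRCh38.p14. The NAB2 site starts 62 bases upstream of the RefSeq start and lies in the first exon as the file annotates it. The first NAB1 site shown overlaps a second match of the same letters. GCGGGGGCG was present in 4.72% and GCGTGGGCG in 0.72% of the 35116 windows. Neither was found in the 250 bases upstream of EGR1, EGR2 or EGR4.

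NAB1 levels were 65.4, 61.8 and 64.9 CPM in 8:2 FTS libraries, against 66.9, 75.6 and 73.3 CPM in control libraries. This was the only compound whose NAB1 libraries all lay below control, by a narrow gap, and the log2 fold change was -0.17 (SE 0.08). With 8:2 FTS 7.17% of all genes tested lay wholly below control. For PFOA, with 71.7, 75.5 and 69.3 CPM, the NAB1 log2 fold change was 0.00 (SE 0.08), and the other 4 compounds lay between -0.14 and -0.08. Mean NAB1 levels thus ran from 64 CPM with 8:2 FTS to 72.2 with PFOA, with 71.9 CPM ± 4.49 in control (SD, n = 3). The antisense gene ENSG00000228509 shares 589 bases, 12.1% of the exon bases of NAB1, and averaged 28.2 counts per library against 1240 for NAB1.

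NAB2 levels were 28.9, 40.6 and 32.5 CPM in PFOS libraries, against 34.8, 30.9 and 26.9 CPM in control libraries. PFOS gave the highest NAB2 mean, 34 CPM ± 5.99, and 8:2 FTOH the lowest, 30.2 ± 1.38, against 30.9 ± 3.95 in control (SD, n = 3 each). Every compound group overlapped control. The log2 fold change over control ran from -0.03 for 8:2 FTOH to 0.13 for PFOS (SE 0.11 each). STAT6 shares 69 exon bases with NAB2, 2.41% of its length, on the opposite strand, and had 23 counts per library.

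**Figure D3:**
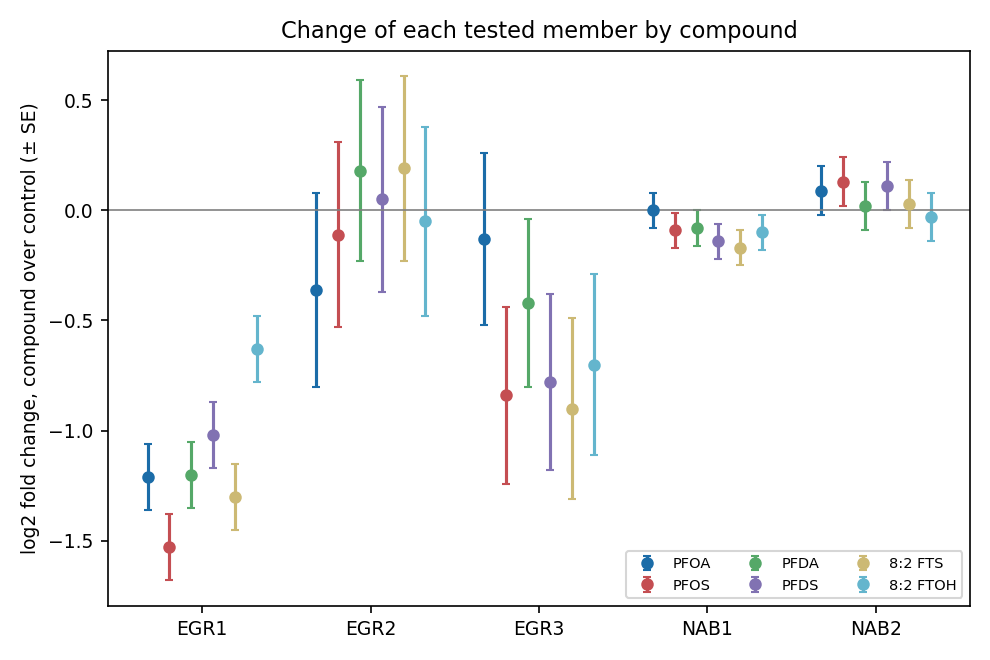
Fitted log2 fold change of compound over control for the 5 members in the fit; points are the 6 compounds and bars 1 SE. EGR1 lies at -1.53 to -0.63, EGR3 at -0.90 to -0.13 with wide bars, EGR2 on both sides of 0, and NAB1 and NAB2 between -0.17 and 0.13.

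Per kilobase of exon the order of the members over all 21 libraries was NAB1 (mean 13.9 RPKM, reads per kilobase relative to library size), NAB2 (11.2), EGR1 (6.14), EGR2 (0.272), EGR3 (0.185) and EGR4 (0.0338). With PFOS, EGR1 was at 4.01 RPKM ± 1.11 and NAB2 at 11.9 ± 2.09 (SD, n = 3). In control, EGR1 at 11.4 RPKM ± 2.81 and NAB2 at 10.8 ± 1.38 did not differ beyond their spread (SD, n = 3). The ranges of EGR2 and EGR3 over the 21 libraries overlapped. EGR1 made up 85.9% to 96.3% of the summed RPKM of the EGR genes in compound libraries and 93.5% to 96.6% in control libraries.

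The ratio of EGR1 to the sum of NAB1 and NAB2, per kilobase, is taken within each library and does not depend on how libraries are scaled. It was 0.187 ± 0.0238 with PFOA, 0.155 ± 0.0321 with PFOS, 0.202 ± 0.0345 with PFDA, 0.225 ± 0.014 with PFDS, 0.193 ± 0.00265 with 8:2 FTS, 0.308 ± 0.0544 with 8:2 FTOH and 0.447 ± 0.102 in control (SD, n = 3 each). The highest compound library, 8:2 FTOH replicate 3 at 0.368, was just under the lowest control library, replicate 3 at 0.376. The summed NAB level itself was 21.8 to 27.7 RPKM in compound libraries and 24.4 to 26.3 in control libraries. The ratio therefore carried the same order of groups as EGR1 alone, except that 8:2 FTS lay above PFOA. It uses the measure by which EGR1 was chosen and is given without a test.

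**Figure D4:**
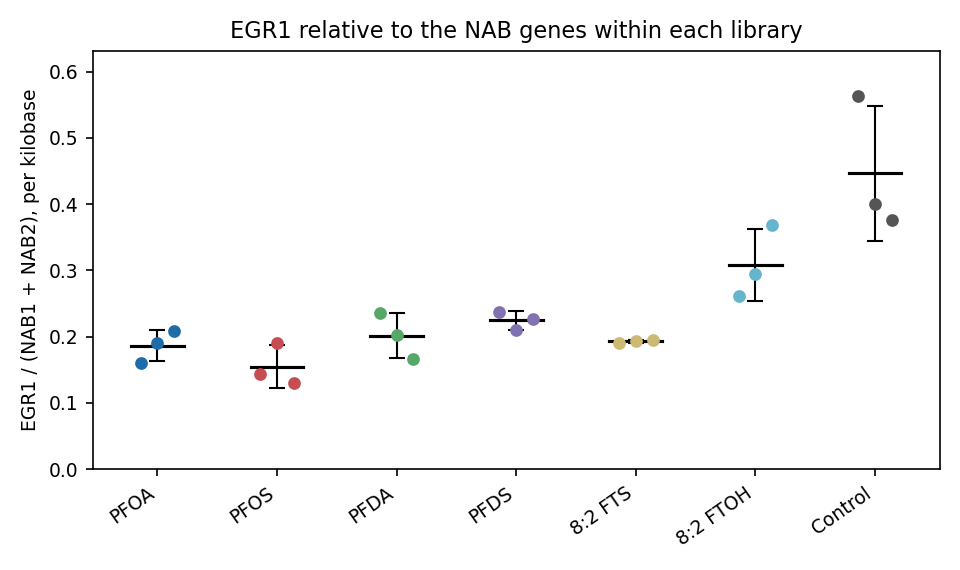
Ratio of EGR1 to the sum of NAB1 and NAB2 per kilobase within each library, by group; points are libraries, lines the mean and bars 1 SD. The 8:2 FTOH libraries lie at 0.262 to 0.368, above all other compound libraries, and the control libraries at 0.376 to 0.564.

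Differences among the compounds are contrasts of compound libraries and were tested, although the fit over all 21 libraries shares its spread and scaling with control and the choice of members had used the levels of all libraries. All 7 pairs compared were at the same dose and time, with p-values adjusted over all 24879 genes in each pair. None of the 35 edgeR tests of the 5 members passed, 3 of them, all of EGR1, had an unadjusted p under 0.05, and DESeq2 called 0 in these pairs. Over all genes, 729 to 1621 of 24879 per pair had an unadjusted p under 0.05 in edgeR. In the pairs, 0 genes were called except 1 gene (0.00402%) for PFDS over PFOS and 1 gene (0.00402%) for 8:2 FTOH over PFOA. For EGR1 the widest differences involved the alcohol. The log2 fold change of 8:2 FTS over 8:2 FTOH, which differ in the head group, was -0.66 (95% interval -0.98 to -0.34, edgeR adjusted p = 0.664). That of 8:2 FTOH over PFOA was 0.58 (0.27 to 0.90, edgeR adjusted p = 0.351).

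Chain length was compared within each acid series. For EGR1, PFDS over PFOS gave 0.50 (95% interval 0.19 to 0.82, edgeR adjusted p = 0.999), with 1 PFOS library inside the PFDS range. PFDA over PFOA gave 0.01, with an interval of -0.30 to 0.33. The acid group was compared within the shorter and within the longer compounds. PFOS over PFOA gave -0.31 (-0.63 to 0.01) and PFDS over PFDA 0.18 (-0.13 to 0.49). For 8:2 FTS over PFDS the value was -0.27 (-0.59 to 0.04). These intervals still hold differences of moderate size, so the pairs are not shown to act alike.

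For EGR3 the pair with the largest difference was PFOS over PFOA, at -0.71 (95% interval -1.54 to 0.13), and for EGR2 PFDA over PFOA, at 0.54 (-0.34 to 1.42). NAB1 and NAB2 differed by at most 0.12 either way in any pair, with intervals within 0.36 of 0. A joint test of all 6 compounds gave EGR1 an edgeR adjusted p of 0.149 and each of the other 4 members an edgeR adjusted p of 1. In that test 0 of 24879 genes were called by edgeR, with 1040 at an unadjusted p under 0.05. DESeq2, with 33 genes called, and a fit to the 18 compound libraries alone, with 10 called, put EGR1 past the threshold. So did leaving out control replicate 1 (11 genes called) or PFOS replicate 2 (1 gene called), as well as dropping the filter on low counts (75 genes called).

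Other immediate early transcription factors were read from a list of 19, of which 15 passed the filter. This list and those below were chosen with earlier results of these data known. Up to 2 genes are named per list, those with the smallest unadjusted p against control. Their p-values against control therefore describe the fit and are no independent evidence. Per compound, 3 to 6 of the 15 genes had an unadjusted p under 0.05 in edgeR, against 1389 to 2503 of all 24879 genes. FOS, which encodes a subunit of AP-1, was the only gene of the list called for any compound, and it was lower each time. Its mean was 2.20 CPM ± 0.467 with PFOA, 1.38 ± 0.486 with PFOS, 2.71 ± 1.05 with PFDA, 4.45 ± 1.15 with PFDS, 1.56 ± 0.315 with 8:2 FTS and 2.67 ± 0.562 with 8:2 FTOH, against 7.50 ± 0.934 in control (SD, n = 3 each). FOS fell for PFOA (log2 fold change -1.79, edgeR adjusted p = 0.0011), PFOS (-2.49, 9.09e-07), PFDA (-1.42, 0.0332), 8:2 FTS (-2.29, 9.53e-06) and 8:2 FTOH (-1.48, 0.02). For PFDS it was -0.77 (edgeR adjusted p = 0.579). DESeq2 gave FOS no adjusted p for PFOA and PFDA. The edgeR call of FOS held under all alternatives for PFOS and 8:2 FTS. It was lost without PFOA replicate 3 for PFOA, and without control replicate 1 or 2 or 8:2 FTOH replicate 2 or 3 for 8:2 FTOH. For 8:2 FTOH it was also lost without 8:2 FTOH replicate 3 and control replicate 3 together. For PFDA it was lost without any single PFDA library, without control replicate 1 or 2, and under library-size scaling or the replicate block.

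FOS and EGR1 did not follow the same order of compounds. FOS was higher with PFDS than with PFOS by 1.72 on the log2 scale (SE 0.30, edgeR adjusted p = 0.0253), and it was the gene called in that pair. The call was lost without PFDS replicate 1 or 2 or PFOS replicate 1 or 2, under library-size scaling and in a fit of that pair alone. With 8:2 FTOH, where EGR1 was closest to control, FOS was at -1.48 (SE 0.28), beside -1.42 (SE 0.26) with PFDA. FOSB, the second gene named from the list, had log2 fold changes of -1.80 to -0.20 (SE 0.50 to 0.57) and was not called. Its counts were few, 17 to 53 over each compound group and 85 over the control group. The median over the 15 genes lay between -0.26 for PFOA and -0.10 for 8:2 FTOH, against medians near 0 for all genes. Per compound 10 to 12 of the 15 were negative, against 48.2% to 49.5% of all genes. The 6 comparisons, here and for the lists below, share the same control libraries.

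Of 14 activity-regulated effector genes 11 were in the fit, and per compound 2 to 4 of them had an unadjusted p under 0.05 in edgeR. PLK2, a kinase that acts in synaptic downscaling, fell for 8:2 FTS (log2 fold change -0.62, SE 0.11, edgeR adjusted p = 0.00832) and 8:2 FTOH (-0.62, SE 0.11, edgeR adjusted p = 0.02). Its level was 29 CPM ± 2.15 with 8:2 FTS and 29.1 ± 0.36 with 8:2 FTOH, against 44.9 ± 3.8 in control (SD, n = 3 each). INHBA, which encodes the activin beta A subunit, fell for PFDS (-0.67, SE 0.12, edgeR adjusted p = 0.0147), to 36.1 CPM ± 9.84 against 58.1 ± 2.18 in control. PLK2 was at -0.54 with PFDA, -0.47 with PFOS, -0.46 with PFOA and -0.42 with PFDS, none called by edgeR, while DESeq2 called it for PFOA and PFDA as well. The other 9 genes were not called by edgeR or DESeq2, and the median over the 11 lay between -0.10 and 0.05. Per compound 5 to 8 of the 11 were negative. The PLK2 calls were lost without control replicate 1 or 2, 8:2 FTS replicate 1 or 3, or 8:2 FTOH replicate 2 or 3, and the INHBA call without control replicate 1 or 2 or PFDS replicate 1 or 2 or in a fit of those groups alone.

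None of the 14 ERK feedback genes was called by edgeR for any compound, and DESeq2 called SPRY2 and SPRY4 for PFOA only. Per compound, 2 to 6 of the 14 had an unadjusted p under 0.05 in edgeR, against 1389 to 2503 of all 24879 genes. SPRY4 and SPRY2, which restrain receptor tyrosine kinase signalling, had log2 fold changes of -0.41 to -0.20 and -0.34 to -0.07. Of the 14 genes 9 to 12 were negative per compound, against 48.2% to 49.5% of all genes, with medians of -0.16 to -0.05. Of 18 genes that carry the signal from ERK to SRF 0 were called by edgeR or DESeq2, with 0 to 3 per compound at an unadjusted p under 0.05 in edgeR. SRF itself was at -0.25 to -0.04 and RPS6KA5, the kinase MSK1, at 0.12 to 0.27, and list medians lay between -0.08 and 0.02. Per compound 7 to 14 of the 18 were negative.

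The 13 NuRD subunits, the complex recruited by NAB proteins, gave no call by edgeR or DESeq2. Per compound, 1 to 5 of them had an unadjusted p under 0.05 in edgeR, against 1389 to 2503 of all 24879 genes. Between 10 and 13 of the subunits were negative per compound, against 48.2% to 49.5% of all genes, with medians of -0.15 to -0.05. The 6 comparisons share the same control libraries. GATAD2A lay at -0.33 to -0.04 and the deacetylase gene HDAC2 at -0.22 to -0.08. Of 25 genes reported as EGR targets 21 were in the fit, and per compound 1 to 7 of them had an unadjusted p under 0.05 in edgeR. MAOB, the monoamine oxidase B gene, was the only one called. By edgeR it fell for PFOA (log2 fold change -0.65, SE 0.13, edgeR adjusted p = 0.0324), to 23.4 CPM ± 3.38 against 36.7 ± 2.18 in control (SD, n = 3 each), a call lost without control replicate 1 or 2 or PFOA replicate 1 or 3 and under library-size scaling. With the other compounds MAOB was at -0.56 to -0.40, and DESeq2 called it for 8:2 FTS (edgeR adjusted p = 0.0587). DESeq2 gave MAOB no adjusted p for PFOA. SYN1, which encodes the synaptic vesicle protein synapsin I, was at -0.44 to -0.05. List medians lay between -0.11 and 0.02, and per compound 10 to 14 of the 21 EGR targets were negative.

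**Figure D5:**
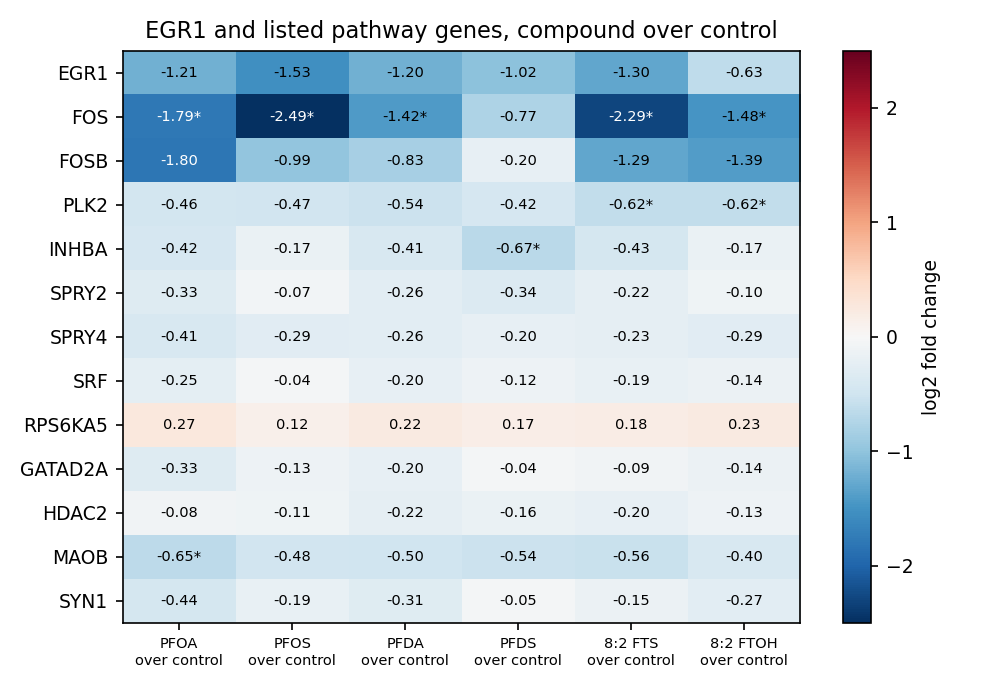
Log2 fold change of compound over control for EGR1 and 12 genes named from the pathway lists; rows are genes, columns compounds, colour and figures the value. An asterisk marks an adjusted p under 0.05 for genes other than EGR1, for which no test is shown. EGR1 lies at -1.53 to -0.63 and FOS at -2.49 to -0.77, while the NuRD genes GATAD2A and HDAC2 lie at -0.33 to -0.04.

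Levels most like that of EGR1 were sought among 19791 genes with a mean of at least 1 CPM, by Pearson correlation of log2 CPM over all 21 libraries. The 5 genes nearest were PGD (r = 0.79, Spearman rho = 0.65), PIK3R3 (r = 0.78, rho = 0.62), KBTBD2 (r = 0.75, rho = 0.61), TBX3 (r = 0.74, rho = 0.60) and ENSG00000287979 (r = 0.73, rho = 0.67). The libraries share their groups, and with group means removed the same correlations were 0.12 to 0.55. Their log2 fold changes over control were -0.33 to -0.22 for PGD, an enzyme of the pentose phosphate pathway, -0.22 to -0.13 for PIK3R3, -0.11 to -0.04 for KBTBD2, -0.40 to -0.29 for TBX3 and -1.01 to -0.30 for ENSG00000287979. Since these genes were picked for their likeness to EGR1, the changes are given without a test. EGR3 reached r = 0.44 with EGR1 over the 21 libraries and 0.10 with group means removed. NAB2 had r = -0.07 over the 21 libraries and 0.53 with group means removed, where 311 of the 19791 genes had a higher value. These correlations are descriptions and carry no test.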

How the data were processed

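The submitters' processing notes name hg38, HISAT2, SAMtools, featureCounts, FastQC, MultiQC and DESeq2. The authors ran featureCounts 2.0.1 without a strand option, per the file headers, so genes that overlap cannot be told apart although the kit was stranded. The deposited table holds raw counts per gene. The authors' normalized table was not used.

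Symbols came from the reference gene table and matched 42303 of 62656 genes (67.52%). Counts were filtered with filterByExpr of edgeR 4.0.16 in R 4.3.3, scaled with TMM and fitted over all 21 libraries with the robust quasi-likelihood test. Benjamini-Hochberg adjustment ran over 24879 genes in each comparison, at 0.05. RPKM values use the exon lengths of the file. The biological coefficient of variation was 0.112. Intervals are at 95% and cover counting error where said, and the limit of a count of 0 is 3 counts. Python 3.11.15, pandas 2.3.3 and matplotlib 3.10.9 made tables and figures.

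The members and gene lists were chosen with earlier results of these data known. Genes named besides the 6 members were the 5 most like EGR1 and, per list, up to 2 with the smallest unadjusted p against control, while markers and overlapping genes are named for context. Upstream sequences are RefSeq (GRCh38.p14), and 5 of 6 members matched, all but EGR3. Alternatives were DESeq2 size factors, scaling by library size, no filter, a filter at a mean of 1 CPM with 10 counts in 3 libraries, DESeq2 1.42.0, only the groups compared, a replicate block, and leaving out each library or 2 libraries.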

Additional observations from a re-analysis of the deposited data

Results flagged for a closer look

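FOS, which encodes an AP-1 subunit, differed between the longer and the shorter sulfonic acid: PFDS over PFOS gave a log2 fold change of 1.72 by a direct test (edgeR adjusted p = 0.0253), with 4.45 CPM ± 1.15 in PFDS libraries and 1.38 ± 0.486 in PFOS libraries (SD, n = 3 each). The call held in 8 of 14 alternatives. It was lost without PFDS replicate 1 or 2 or PFOS replicate 1 or 2, under library-size scaling and in a fit of that pair alone. FOS had been named by its p against control, which used the same PFOS libraries. This test is therefore not independent of that choice.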

How the results depend on the processing

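The counts against control concern the contrasts by which the members were chosen and describe the settings only. DESeq2 gave EGR1 no adjusted p for PFOA and PFDA, and the count of members called was 1 for each compound but 8:2 FTOH elsewhere. For 8:2 FTOH against control the number of members called was 0, and 1 (EGR1) with no filter on low counts, with DESeq2 and without control replicate 3 and 8:2 FTOH replicate 3 together; leaving out single libraries gave 0 to 1. For 8:2 FTS over 8:2 FTOH and 8:2 FTOH over PFOA it was 0, and 1 with no filter. For the joint test it was 0, and 1 with no filter, with DESeq2 and with only the compound libraries, and leaving out single libraries gave 0 to 1. The cause of these shifts was not tested. The number of all genes called shifted as well. Over the alternatives it was 0 to 6 for 8:2 FTS over 8:2 FTOH, 0 to 23 for 8:2 FTOH over PFOA and 0 to 75 for the joint test. EGR1 kept its sign against control throughout. EGR2 changed sign for 5 compounds without being called.

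The number of all genes called moved more: 8 for PFOA (1 to 169 over alternatives), 6 for PFOS (2 to 52), 2 for PFDA (1 to 68), 6 for PFDS (1 to 100), 21 for 8:2 FTS (4 to 126) and 8 for 8:2 FTOH (1 to 107). EGR2, EGR3 and EGR4 are limited by their counts.

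Same-numbered libraries did not deviate together (correlations of -0.10 to 0.24, with all 3 over 0.1 in 0 of 13 comparisons). With a replicate block the members called numbered 1 for PFOA, PFOS, PFDA, PFDS and 8:2 FTS and 0 for 8:2 FTOH, and 0 among compounds. As above, the counts against control describe the setting only. The ranges of all genes called given above include the replicate block.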
